A study of Mus musculus with 2 samples.

Results

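The 8 genes described here encode neurexins, neuroligins and cerebellins, the proteins that join the 2 sides of a synapse. They are the listed genes of these families in the count matrix, taken by name and not by their values, and they make up 8 of its 25556 genes. *Nrxn2* and *Nrxn3* encode neurexins, *Nlgn1*, *Nlgn2* and *Nlgn3* encode neuroligins, and *Cbln1*, *Cbln2* and *Cbln4* encode cerebellins. Their RNA was counted in brainstem nuclei of 1 wild-type (WT) mouse and 1 heterozygous (HET) mouse with a loss-of-function missense allele of *Scn1a*, which encodes the Nav1.1 sodium channel and is mutated in Dravet syndrome, a severe epilepsy. The comparison was an exploratory look at the brainstem of HETs that had lived past the age of high mortality.

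The HET mouse carried the Scn1a A1783V/WT knock-in, made by crossing a male with a floxed stop cassette before the mutant allele to a Sox2-Cre female, so that the allele is active throughout the body. The WT mouse came from the same breeding, with intact *Scn1a*, on the C57BL/6J background. Both mice were female, untreated and at postnatal day 41. A single animal stands for each genotype, and the HET is a survivor, so no difference can be separated from a difference between 2 mice, 2 dissections or 2 libraries.

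Neurexins sit in the presynaptic membrane and reach across the cleft. Neuroligins bind them from the postsynaptic side, with NLGN1 found mainly at excitatory synapses, NLGN2 mainly at inhibitory synapses and NLGN3 at both. Cerebellins are secreted and tie neurexins to postsynaptic receptors such as the one encoded by *Grid1*.

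The WT library held 70301390 unique molecular identifiers (UMIs, each counting 1 captured RNA molecule) in 9259 nuclei, and the HET library held 66176778 in 9022 nuclei, with medians of 5456 and 5646 UMIs per nucleus. Levels are UMIs of a gene summed over nuclei, given as counts per 1000000 of all their UMIs (CPM). The genotypes were compared by the log2 of HET CPM divided by WT CPM, which is below 0 where HET was lower. All intervals are exact 95% intervals for the error of counting alone. No test was made and no p-value is given, since each genotype had a single library. The libraries shared 23 barcodes, 6 of them in the same cluster in both. Neuronal clusters held 66.1% of the WT nuclei and 59.8% of the HET nuclei, and ribosomal protein genes gave a median of 0.696% of UMIs in WT and 0.407% in HET. *Scn1a* itself was at 380 CPM in WT and 420.4 CPM in HET, which does not check the labels because the counts do not tell the alleles apart. Clusters are named as deposited, and their markers are given where a result rests on them.

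The genes differ in size by orders of magnitude, which matters for RNA of nuclei, where unspliced transcripts of long genes are captured. In mouse build GRCm38, *Nrxn2* (ENSMUSG00000033768) spans 125 kb of chromosome 19 from 6418731 to 6544169, and *Nrxn3* (ENSMUSG00000066392) spans 1612 kb of chromosome 12 from 88722876 to 90334935, both on the plus strand. *Nlgn1* (ENSMUSG00000063887) spans 906 kb of chromosome 3 from 25426215 to 26332460 on the minus strand. *Nlgn2* (ENSMUSG00000051790) spans 14.7 kb of chromosome 11 from 69823122 to 69837784 on the minus strand, and *Nlgn3* (ENSMUSG00000031302) spans 26.8 kb of chromosome X from 101299168 to 101325963 on the plus strand. *Cbln1* (ENSMUSG00000031654) spans 4.21 kb of chromosome 8 from 87468405 to 87472609 and *Cbln4* (ENSMUSG00000067578) spans 7.23 kb of chromosome 2 from 172036233 to 172043466, both on the minus strand. *Cbln2* (ENSMUSG00000024647) spans 7.17 kb. Because the levels are not scaled by length, they are compared here between nuclei and never between genes. *Nrxn2* overlaps *Gm14964* and *Slc22a12* on the other strand, *Nlgn1* overlaps *Gm37573* on its own strand and *A830092H15Rik* on the other, and *Cbln1* overlaps *Gm2694* on the other. Whether reads were counted by strand is not given in the sources used here, so the values of these 3 genes are uncertain to that extent. The other 5 overlap no gene of the matrix.

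The level of *Nrxn3*, one of the longest genes in the matrix, differed widely between inhibitory and glutamatergic neurons. Nuclei of the neuronal clusters were called inhibitory or glutamatergic when they had 5 or more UMIs from the transporter and enzyme genes of that class, and these outnumbered the UMIs of the other class by 5 to 1 or more. The inhibitory genes were *Slc32a1*, *Gad1*, *Gad2* and *Slc6a5*, and the glutamatergic genes were *Slc17a6*, *Slc17a7* and *Slc17a8*. In 1107 inhibitory WT nuclei *Nrxn3* was at 7266 CPM, and in 134 glutamatergic WT nuclei it was at 1773 CPM. In HET it was at 7471 CPM in 785 inhibitory nuclei and at 1965 CPM in 225 glutamatergic nuclei. The log2 ratio of glutamatergic over inhibitory was −2.03 (−2.07 to −1.995) in WT and −1.93 (−1.96 to −1.89) in HET, about the same in both libraries. Nuclei that pass this rule are deep, with medians of 12196 UMIs for inhibitory and 17564 UMIs for glutamatergic nuclei in WT. With a looser rule, a UMI of one class and none of the other, the ratio was −1.87 in both libraries.

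The cerebellin genes *Cbln1* and *Cbln2* differed the other way between the same nuclei, on far fewer molecules. *Cbln2* was at 2.83 CPM (45 UMIs) in inhibitory and 7.64 CPM (23 UMIs) in glutamatergic WT nuclei, a log2 ratio of 1.43 (0.64 to 2.19). In HET it was at 2.36 CPM in inhibitory and 4.11 CPM in glutamatergic nuclei, and the interval of its ratio, 0.80 (−0.18 to 1.75), crossed 0. *Cbln1* was at 1.70 CPM (27 UMIs) in inhibitory and 3.99 CPM (12 UMIs) in glutamatergic WT nuclei, a ratio of 1.23 (0.12 to 2.26). In HET it was at 2.17 CPM (23 UMIs) and 4.36 CPM (18 UMIs), a ratio of 1.01 (0.03 to 1.96). Both genes were thus higher in glutamatergic nuclei of both libraries, with the HET difference of *Cbln2* within counting error under this rule. *Cbln4* was close to level, at 5.53 and 5.98 CPM in WT and 5.37 and 6.53 CPM in HET, with ratios of 0.11 (−0.71 to 0.86) and 0.28 (−0.44 to 0.97). Without the neuron.5 cluster, described below, the *Cbln1* ratio stayed at 1.24 (0.12 to 2.27) in WT, and in HET it was 0.86 with an interval from −0.16 to 1.84. With the looser rule and neuron.5 kept, *Cbln2* had ratios of 1.74 (1.35 to 2.14) in WT and 1.38 (0.93 to 1.84) in HET. Those of *Cbln1* were 1.82 (1.37 to 2.29) and 1.00 (0.57 to 1.44).

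The neuroligins and *Nrxn2* differed less between the classes. *Nlgn1* was at 2672 CPM in inhibitory and 2374 CPM in glutamatergic WT nuclei, and at 2922 and 2336 CPM in HET, ratios of −0.17 and −0.32. *Nlgn3* was at 26.8 and 19.9 CPM in WT and at 22.1 and 18.1 CPM in HET, ratios of −0.43 (−0.84 to −0.03) and −0.29 (−0.68 to 0.09). Both genes thus had their higher value in inhibitory nuclei under this rule, for *Nlgn3* in HET within counting error. With the looser rule *Nlgn1* was about level in WT, at −0.01 (−0.03 to 0.005), and at −0.14 (−0.16 to −0.12) in HET. The looser ratio of *Nlgn3* was −0.19 in both libraries. *Nlgn2*, the neuroligin of inhibitory synapses, was at 37.2 and 32.2 CPM in WT and at 28.8 and 28.1 CPM in HET, and both intervals of the ratio, −0.21 (−0.53 to 0.10) and −0.04 (−0.36 to 0.27), included 0. *Nrxn2* had ratios of −0.03 (−0.20 to 0.13) in WT and −0.22 (−0.39 to −0.05) in HET. The nuclei themselves were classed by the genes they transcribe, so these are nuclear RNA levels of each class. They say nothing of the synapses that these neurons receive.

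**Figure D1:**
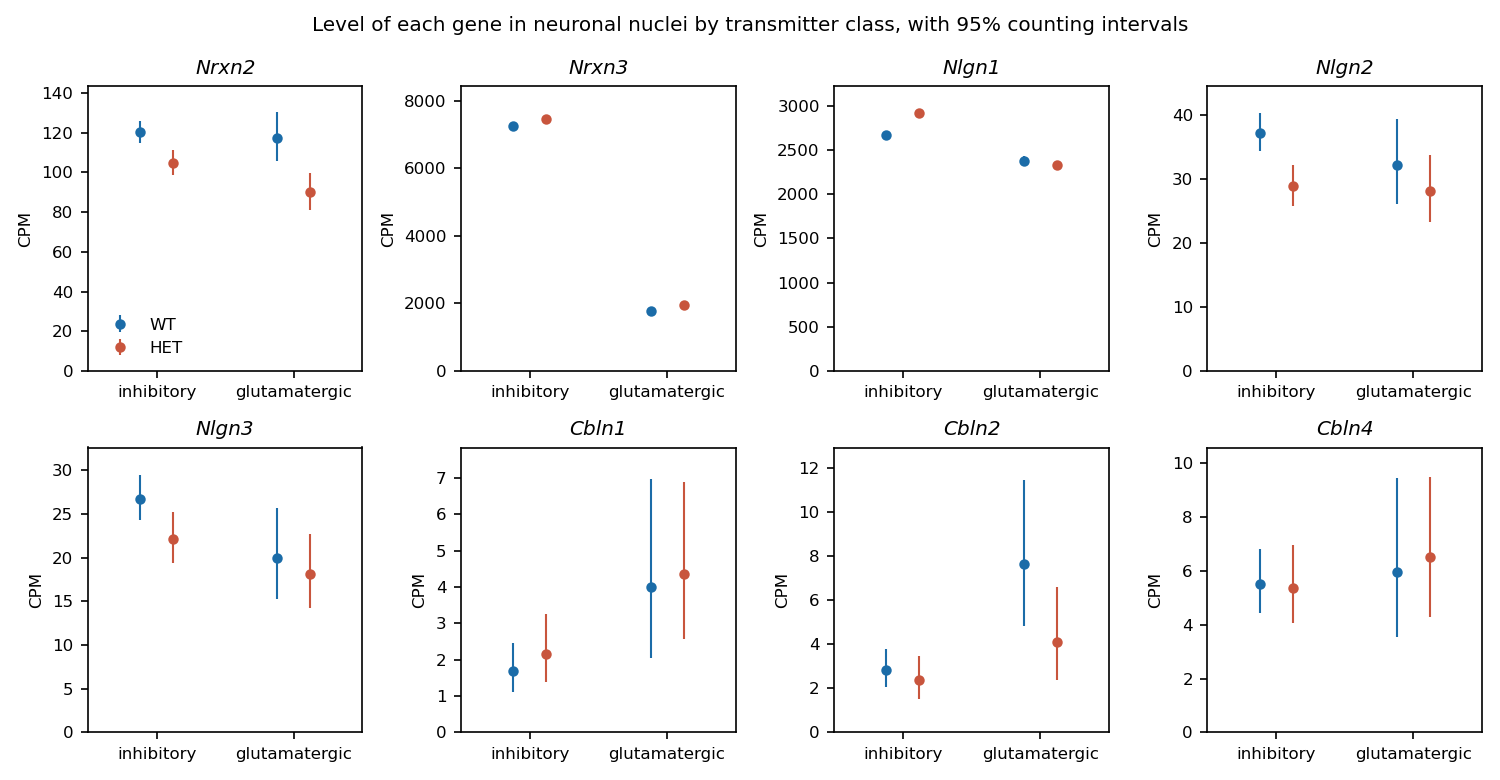
CPM of each gene in inhibitory and glutamatergic nuclei (x axis) of the WT and HET libraries, points with 95% counting intervals, each panel on its own scale from 0. *Nrxn3* stands at 7266 and 7471 CPM in inhibitory nuclei against 1773 and 1965 CPM in glutamatergic nuclei.

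Among the 34 deposited subclusters, 4 of the 5 neurexin and neuroligin genes were highest in the same non-neuronal subcluster. Subcluster 32 held 47 WT and 3 HET nuclei and lies in the cluster deposited as epend.1. Its leading genes against all other nuclei include *Pdgfra*, *Cspg4* and *Vcan*, the 3 markers listed for oligodendrocyte precursors, and it is called precursor-like here. In its WT nuclei *Pdgfra* was at 816 CPM, *Vcan* at 1102 CPM and *Cspg4* at 364 CPM, while the ependymal markers *Foxj1* and *Ccdc153* were at 0, *Tmem212* had 1 UMI and the neuronal marker *Rbfox3* at 29.5 CPM. The rank of a gene in a subcluster is a description, since the nuclei were clustered on the same counts.

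In these precursor-like nuclei *Nlgn1* was at 4022 CPM over both libraries (3653 to 4417, 437 UMIs), and the interval of every other subcluster lay below it. *Nlgn3* was at 92.0 CPM (44.1 to 169) on only 10 UMIs, and the next subcluster, of astrocytes, was at 30.7 CPM (17.2 to 50.6). *Nrxn2* was at 285 CPM (194 to 405, 31 UMIs) ahead of the *Tph2* and *Slc6a4* subcluster 30 at 219 CPM (189 to 252). *Nlgn2* was at 101 CPM (50.5 to 181) on 11 UMIs, with an interval that overlapped those of 9 other subclusters. Of the 4 genes, *Nlgn1* alone stood clear of all others. All 11 UMIs of *Nlgn2* and all 10 of *Nlgn3* came from the WT library. The 3 HET nuclei do not allow a comparison between genotypes.

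*Nrxn3* was highest in a neuronal subcluster instead. Subcluster 24, within neuron.1, had 8250 CPM in the WT library and 7571 CPM in the HET library, and the interval of its summed level lay above those of the other 33. *Cbln1*, *Cbln2* and *Cbln4* were each highest in a different neuronal subcluster, taken up gene by gene below.

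**Figure D2:**
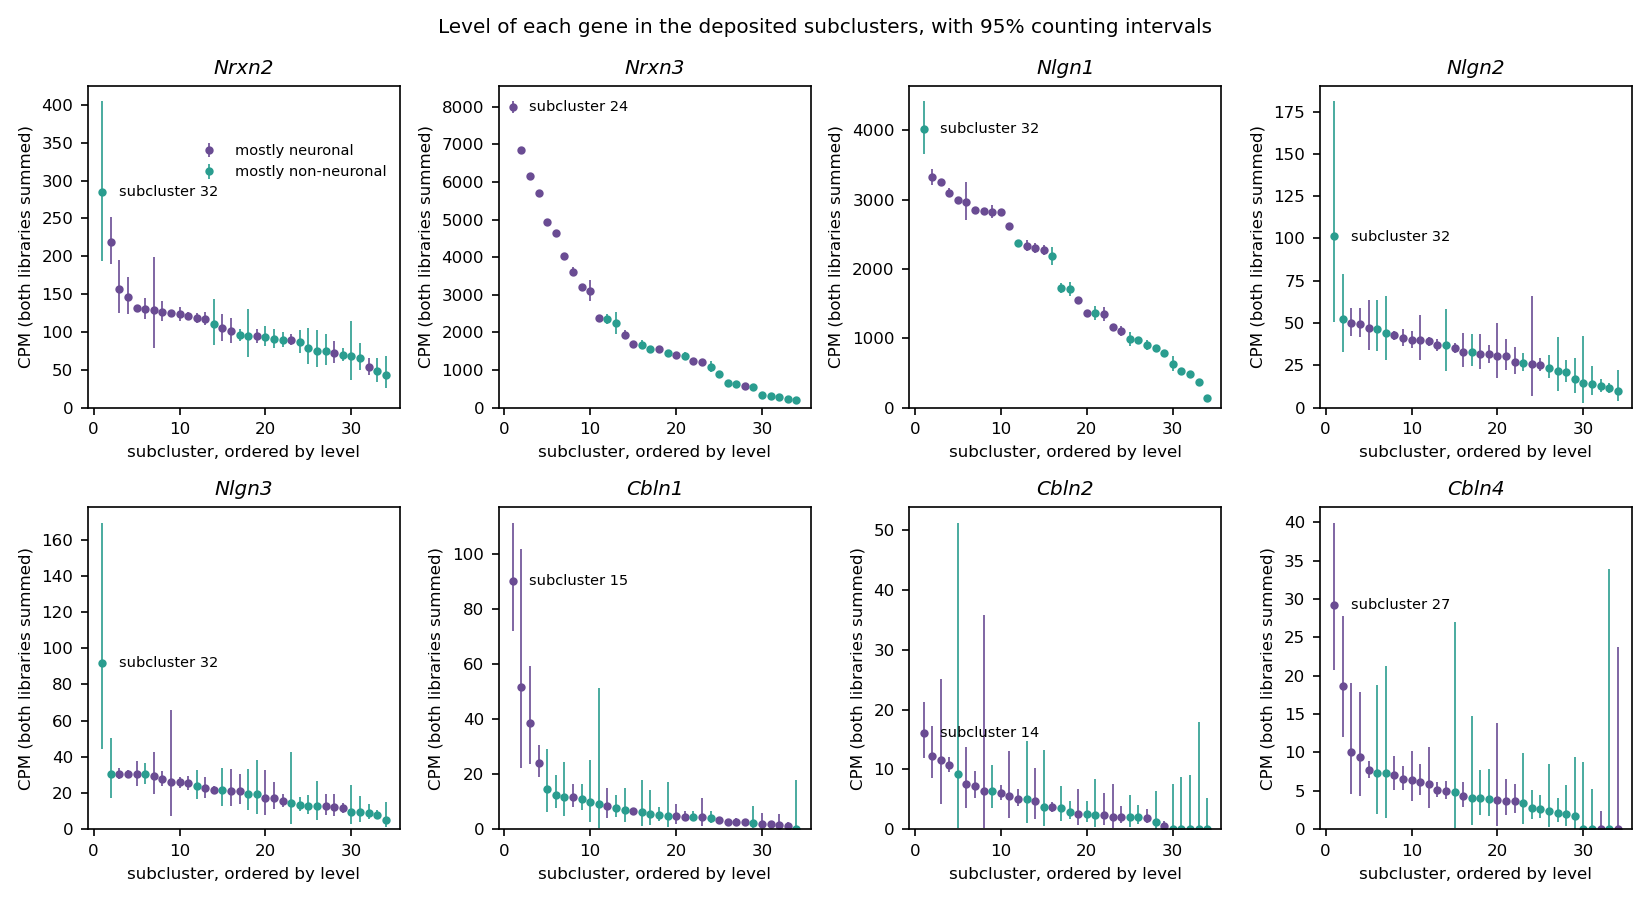
CPM of each gene (y axis, both libraries summed, 95% counting intervals) in the 34 deposited subclusters, ordered from the highest (x axis); purple points are subclusters mostly of neuronal clusters and green points the others. Subcluster 32 leads for *Nrxn2* (285 CPM), *Nlgn1* (4022 CPM), *Nlgn2* (101 CPM) and *Nlgn3* (92.0 CPM), and its intervals are wide for all but *Nlgn1*.

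Clusters were compared where both libraries had 30 nuclei or more, which left 12, and among these the highest clusters of both neurexins were neuronal. *Nrxn3* was highest in neuron.3 (5756 CPM in WT, 5209 in HET), followed by neuron.1 (4602 and 4662) and neuron.5 (3681 and 3221), and the values of these 3 clusters did not overlap each other or those of the next. Next by mean came epend.1 (2588 and 1862 CPM), ahead of neuron.2, neuron.7 and neuron.4. Neuron.4 (1626 and 1530 CPM) and, in WT, neuron.7 (1369 CPM) lay close to astrocytes (1301 and 1523 CPM). *Nrxn3* was low in oligodendrocytes, at 209 CPM in WT against 289 CPM in HET, and in endothelial nuclei of the WT library, also at 209 CPM. The HET value of endothelial nuclei is taken up below. *Nrxn2* was highest in neuron.7 (244 and 186 CPM), a serotonergic-like cluster led by *Tph2* and *Slc6a4*, followed by *Fev* among its top genes, and next in neuron.5 (184 and 150 CPM). Its range was narrower than that of *Nrxn3*. Oligodendrocytes, at 85.1 and 98.5 CPM, overlapped neuron.4 (112 and 81.3 CPM) and neuron.3 (111 and 78.6 CPM). Endothelial nuclei were the lowest, at 47.3 and 48.9 CPM. Of the 11 pairs of neighbours in the order, the values of both libraries were apart in 5 pairs for each neurexin, in 4 for *Nlgn1*, in 2 for *Nlgn2*, *Nlgn3* and *Cbln2*, and in 1 for *Cbln1* and *Cbln4*.

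*Nlgn1* was not confined to neurons. Astrocytes, at 2195 CPM in WT and 2280 CPM in HET, came after neuron.5, neuron.1 and neuron.2, and their values overlapped those of neuron.2 (2265 and 2319 CPM). In astrocytes whose deposited reference label names the same type, the level was 85.1% of that of all neuronal nuclei, against 27.1% in oligodendrocytes and 4.59% in endothelial nuclei so chosen. *Nrxn3* was lower in the same astrocytes, at 34.0% of the neuronal level, and at 5.96% in oligodendrocytes. *Nlgn3* was at 120% of the neuronal level in these astrocytes and at 41.5% in oligodendrocytes, but by library the astrocytes lay above neurons in HET (33.0 against 23.0 CPM) and not in WT (25.7 against 26.3 CPM). *Nlgn2* was at 65.5% in astrocytes and 39.6% in oligodendrocytes, and *Nrxn2* at 61.6% and 77.2%.

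Neuronal nuclei were deeper, so shares of nuclei with a UMI were also taken with each nucleus thinned to 1000 UMIs. *Nlgn1* had a UMI in 98.4% of neuronal nuclei (median 8055 UMIs) and 98.3% of label-matched astrocytes (median 3155.5 UMIs). Thinned, the shares were 84.4% and 84.3% (82.2 to 86.3), so both kinds of nuclei held it about as often. *Rbfox3*, a neuronal marker that glia should lack, had a thinned share of 2.33% in these astrocytes and 21.3% in neurons, 6.75% and 74.3% unthinned. Other neuronal genes varied. Over both libraries *Slc32a1* was at 26.9 CPM in astro, 27.5 CPM in oligo and 39.3 CPM in neuron.1, and *Slc17a6* at 41.6, 40.9 and 76.9 CPM. *Snap25* (125, 135 and 604 CPM), *Gad1*, *Gad2* and *Slc6a5* differed more. The part of neuronal RNA in the glial levels, those of *Nlgn2* and *Nrxn2* among them, was not tested. Thinned shares of *Nrxn3* were 81.1% in neurons, 66.6% in astrocytes and 19.97% in oligodendrocytes. Those of *Nlgn3* were 2.78% in neurons, 2.92% in astrocytes and 1.01% in oligodendrocytes. The order of types was thus the same by share as by CPM for *Nrxn3*. For *Nlgn3*, astrocytes and neurons were about level by share, and both lay above oligodendrocytes by share and by CPM.

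**Figure D3:**
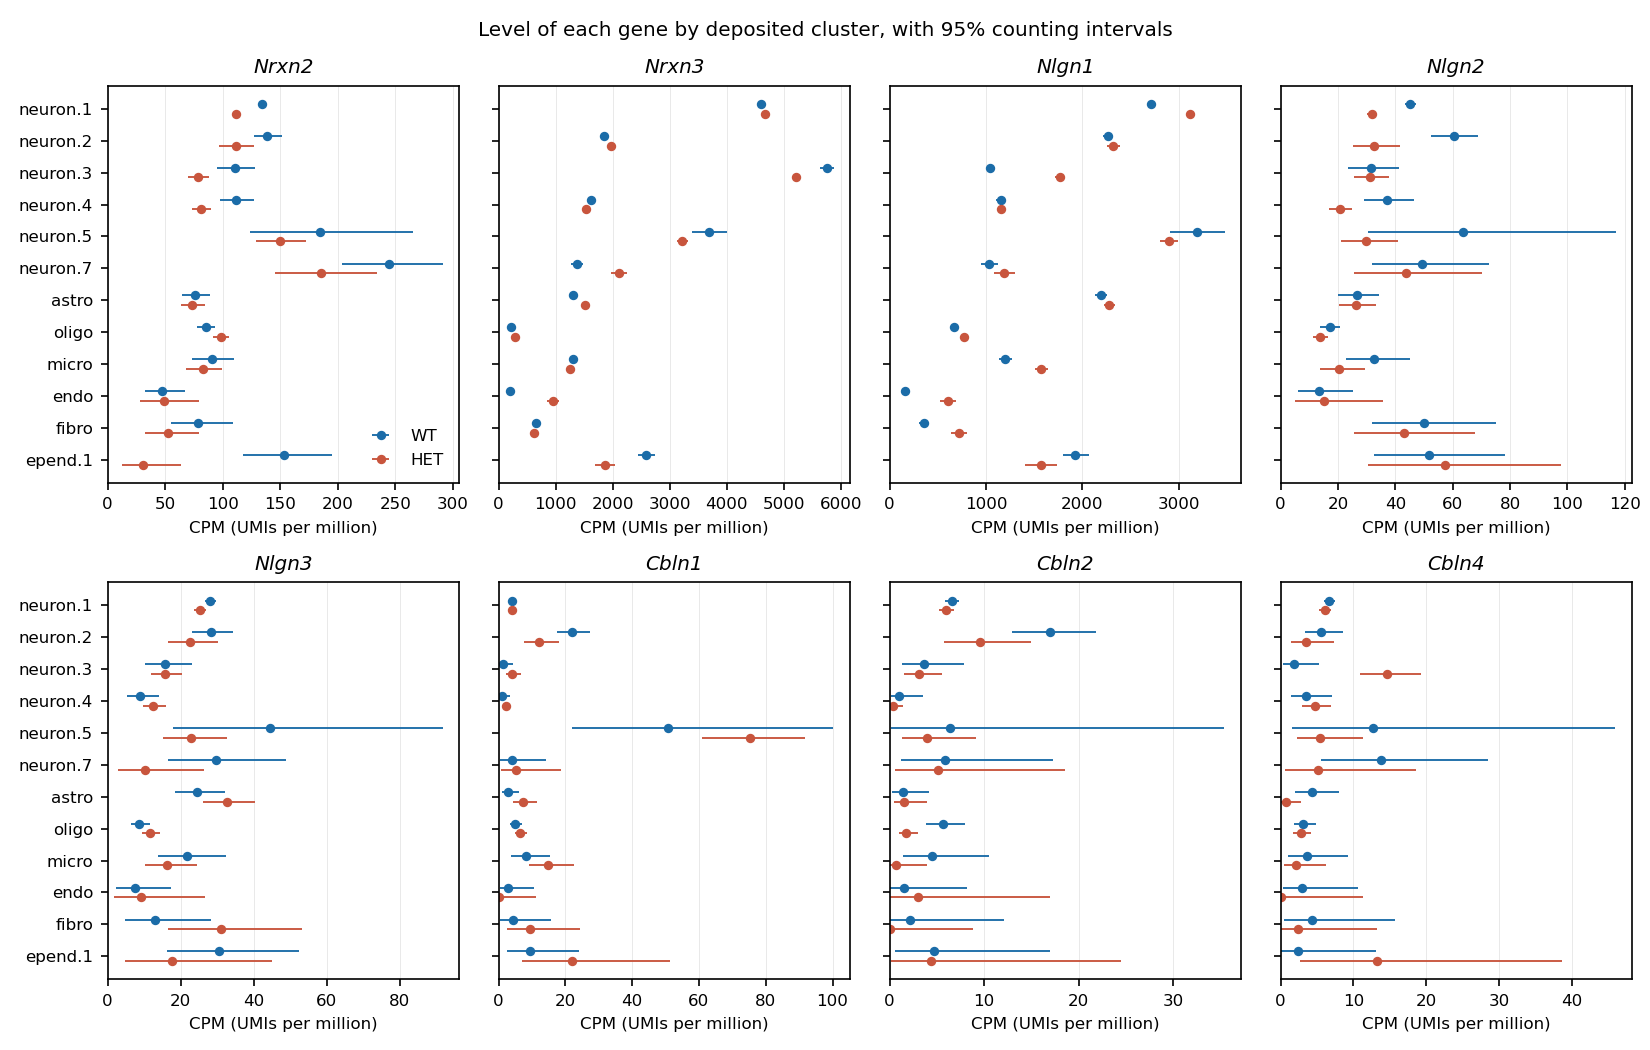
CPM of each gene (x axis, from 0, a scale for each panel) in the 12 clusters compared (y axis), for WT and HET, points with 95% counting intervals. *Nlgn1* in astrocytes (2195 and 2280 CPM) lies beside neuron.2, *Cbln1* peaks in neuron.5 (50.9 and 75.2 CPM), and *Cbln4* in neuron.3 is at 1.82 CPM in WT and 14.7 CPM in HET.

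Over all nuclei, the genotypes differed by less than 1.5-fold for every member. Genes past 1.5-fold in either direction numbered 0 of 8, where 19.0% of the 16347 genes with at least 200 UMIs were past it, 12.7% lower and 6.29% higher in HET. The counting interval lay below 0 for 5 members and above 0 for 2, where it did so for 47.5% and 27.2% of all genes. The median log2 ratio was −0.10 for the 8 members and −0.10 for all genes. By these counts the members did not stand apart from the matrix as a whole.

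Presynaptic *Nrxn2* was lower in HET over all nuclei. It was at 124 CPM (8687 UMIs) in WT and at 104 CPM (6881 UMIs) in HET, a log2 ratio of −0.25 (−0.29 to −0.20). It was lower in 10 of the 12 clusters and 18 of the 28 subclusters that had 30 nuclei or more per library. The interval lay below 0 in 5 of these clusters and above 0 in 1. In label-matched non-neuronal nuclei *Nrxn2* was higher in HET, at 79.3 CPM in WT and 91.6 CPM in HET (0.21, 0.06 to 0.35). In all neuronal nuclei its ratio was −0.28 (−0.33 to −0.23). In neuron.1, the largest cluster, *Nrxn2* was at 134 and 112 CPM, lower in HET in 6 of 7 subclusters. *Nrxn3* was at 3593 CPM (252612 UMIs) and 3536 CPM (234008 UMIs), a ratio of −0.02 (−0.03 to −0.02), which turned above 0 when every cluster had the same weight in both libraries or when the median ratio of all genes was set to 0. Within neuron.1 it was at 4602 and 4662 CPM, a ratio of 0.02. *Nrxn3* was higher in HET in 6 clusters and lower in 6.

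Of the neuroligins, *Nlgn2* had the largest difference. It was at 41.5 CPM (2915 UMIs) in WT and at 28.6 CPM (1890 UMIs) in HET, a log2 ratio of −0.54 (−0.62 to −0.45), or 1.45-fold lower. It was lower in HET in 10 of 12 clusters, though 7 of those intervals included 0, and in 22 of 28 subclusters. In neuron.1 it was at 45.2 and 32.003 CPM, and the interval lay below 0 in 6 of the 7 subclusters mostly of that cluster. In subcluster 9, for example, the level was 49.6 CPM in WT against 28.2 CPM in HET, and in subcluster 3 it was 40.3 and 30.4 CPM. Subcluster 24 was level, at 31.8 and 32.1 CPM. In neuron.2 it was at 60.4 and 32.8 CPM (−0.88, −1.30 to −0.48). The clusters without a lower value were epend.1 and endo, on 35 and 14 UMIs. In label-matched non-neuronal nuclei the ratio was −0.15 (−0.47 to 0.17), while in all neuronal nuclei it was −0.53 (−0.62 to −0.44). When CPM was averaged over nuclei in place of summing UMIs, the ratio passed 1.5-fold, at −0.62.

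*Nlgn1* was slightly higher in HET, at 2304 CPM (162006 UMIs) in WT and 2469 CPM (163376 UMIs) in HET, a ratio of 0.10 (0.09 to 0.11). It was higher in 10 of 12 clusters and 24 of 28 subclusters. In neuron.1 it was at 2711 and 3117 CPM, a ratio of 0.20 (0.19 to 0.21). It was higher in all 7 subclusters there, by smaller ratios of 0.08 to 0.19. With equal weights for the subclusters the neuron.1 ratio was 0.17, and the part of subcluster shares in it was not tested. In neuron.3 *Nlgn1* was at 1045 and 1763 CPM (0.75, 0.68 to 0.83), a cluster in which subcluster 27, with 2407 CPM in HET, held 14 WT and 100 HET nuclei. The markers of subcluster 27 are given below with *Cbln4*. *Nlgn3* was at 24.4 CPM (1716 UMIs) and 21.9 CPM (1447 UMIs), a ratio of −0.16 (−0.26 to −0.06). It was lower in 7 of 12 clusters and in 6 of the 7 subclusters of neuron.1.

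Genes differed between the libraries by their length, and the members are read against that. The median log2 ratio was −0.56 for genes under 3 kb and −0.31 for those from 3 to 10 kb, and was higher in each longer class, up to 0.16 for genes over 1000 kb. Against genes within 1.5-fold of its own length, *Nrxn3* was low: their median was 0.15, and only 2 of 46 (4.35%) had a lower ratio. In neuron.1, 0 of 46 genes of like length were lower than *Nrxn3*. *Nrxn2* was also low for its length, with 10.9% of 1968 like genes below it over all nuclei and 6.77% in neuron.1, where the median of such genes was 0.06. *Nlgn1* lay near the middle (43.4% below), and so did *Nlgn3* (46.4%). *Nlgn2* had 15.5% of 3538 like genes below it, whose median was −0.19. *Cbln1* was high for a gene of its length, with 85.8% below it, and *Cbln2* and *Cbln4* had 32.5% and 70.9% below them. Both neurexins thus lay in the lower part of genes of like length. The part of length in these ratios was not tested.

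**Figure D4:**
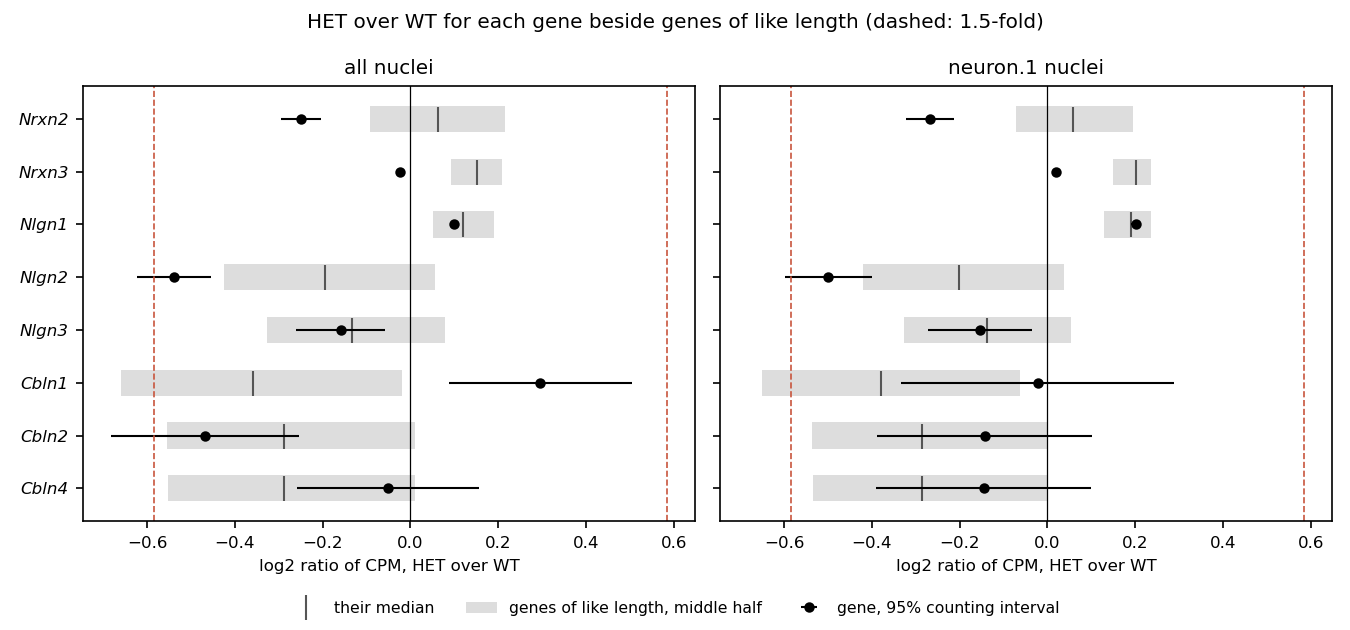
Log2 ratio of CPM, HET over WT (x axis), of each gene over all nuclei and in neuron.1, points with 95% counting intervals, beside the interquartile range (grey bar) and the median (tick) of genes within 1.5-fold of its length; dashed lines mark 1.5-fold. No point passes the dashed lines, and both *Nrxn2* (−0.25 over all nuclei) and *Nrxn3* (−0.02) lie left of the grey bar in both panels.

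In neuron.1, 0 of 8 members were past 1.5-fold either, where 16.3% of 14638 genes were, 11.3% lower and 4.99% higher in HET. The interval lay below 0 for 3 members and above 0 for 2, beside 44.3% and 25.0% of all genes there. The members' median was −0.14, and that of all genes −0.10.

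The cerebellins were sparse. *Cbln1* was found in 698 nuclei, of which 641 held a single UMI, *Cbln2* in 680 (615) and *Cbln4* in 686 (619). With nuclei thinned to 1000 UMIs, *Cbln2* had a UMI in 0.77% of neuronal nuclei and 0.34% of label-matched non-neuronal nuclei, and *Cbln4* in 0.74% and 0.32%, so both were more frequent in neurons. Median depths of these nuclei were 8055 and 2835 UMIs, and unthinned shares were 5.34% and 0.941% for *Cbln2* and 5.38% and 0.907% for *Cbln4*. *Cbln1* had one in 0.84% of neuronal and 0.66% of these non-neuronal nuclei (4.76% and 1.85% unthinned), which over neurons as a whole cannot be told from background.

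*Cbln1*, the cerebellin of granule cells, had its peak in neuron.5. There it was at 50.9 CPM (8 UMIs, 22.0 to 100.2) in WT and 75.2 CPM (96 UMIs, 60.9 to 91.8) in HET, and both values lay above those of every other cluster, although in WT the counting interval overlapped those of neuron.2 and epend.1. With thinned nuclei, 7.71% of neuron.5 (5.22 to 10.9) held a UMI, against 0.68% of label-matched oligodendrocytes, and 24.1% against 1.89% unthinned, at median depths of 3206.5 and 2807 UMIs. The leading genes of neuron.5 were *Eomes* and *Gabra6*, and of the listed granule cell markers *Gabra6* was at 356 CPM in WT and 379 CPM in HET, *Fat2* at 140 and 188 CPM and *Etv1* at 280 and 333 CPM, and *Barhl2* at 6.36 and 3.13 CPM. Summed over both libraries, all 4 were higher there than in any other cluster. Neuron.2 came next with 22.0 CPM of *Cbln1* in WT and 12.1 CPM in HET.

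The neuron.5 cluster held 42 WT nuclei and 332 HET nuclei. Over all nuclei *Cbln1* was at 5.02 CPM (353 UMIs) in WT and 6.17 CPM (408 UMIs) in HET, a log2 ratio of 0.30 (0.09 to 0.51). Neuron.5 gave 8 of the WT UMIs (2.27%) and 96 of the HET UMIs (23.5%). Without it the level was 4.92 CPM in WT against 4.81 CPM in HET, and the ratio was −0.03 (−0.26 to 0.19). Summed over all nuclei, the higher *Cbln1* of the HET library was thus not seen without neuron.5. Whether the number of its nuclei differs by genotype or by dissection cannot be told apart. *Cbln3*, a cerebellin outside the list that is known from granule cells, was at 38.1 CPM in WT and 70.5 CPM in HET in neuron.5. Unlike *Cbln1*, it was also higher in HET in the sum of all nuclei outside neuron.5, with 40 UMIs in WT and 151 in HET, a ratio of 2.03 (1.52 to 2.57). By cluster *Cbln1* was higher in HET in 9 of the 11 clusters with UMIs in both libraries, with no interval above 0, and in label-matched non-neuronal nuclei together the ratio was 0.63 (0.03 to 1.25). Among granule cell markers, *Gabra6* was higher in HET in oligo (0.86 and 6.72 CPM) and astro (1.42 and 7.30 CPM). In micro it was at 3.62 and 19.8 CPM, and in endo, the other way, at 4.44 and 3.06 CPM. *Fat2* in oligo was at 0.68 and 4.82 CPM, while *Etv1* there was lower in HET, at 78.2 and 65.9 CPM. The part of granule cell RNA in the ratios outside neuron.5 was not tested. *Cbln1* was lower in HET in neuron.2, at −0.86 (−1.59 to −0.19), where subcluster 12 was at 15.6 CPM (28 UMIs) in WT and 3.37 CPM (3 UMIs) in HET.

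*Cbln2* was lower in HET, at 6.37 CPM (448 UMIs) in WT and 4.61 CPM (305 UMIs) in HET, a ratio of −0.47 (−0.68 to −0.25). It was lower in 9 of the 11 clusters with UMIs in both libraries and in all 7 subclusters of neuron.1, but no interval in those 7 excluded 0. In neuron.1 as a whole it was at 6.63 and 6.002 CPM (−0.14, −0.39 to 0.10), closer than over all nuclei. Its highest cluster was neuron.2, at 17.0 CPM in WT and 9.57 CPM in HET (−0.83, −1.65 to −0.06), and that cluster made up 5.85% of WT and 3.05% of HET nuclei. In oligodendrocytes 33 WT UMIs (5.65 CPM) stood against 14 HET UMIs (1.77 CPM), and the ratio was −1.67 (−2.69 to −0.73). When CPM was averaged over nuclei, the ratio passed 1.5-fold, at −0.76.

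*Cbln4* did not differ over all nuclei, beyond counting error, at 5.79 CPM (407 UMIs) in WT and 5.59 CPM (370 UMIs) in HET, a ratio of −0.05 (−0.26 to 0.16). In neuron.3, however, it was at 1.82 CPM (3 UMIs) in WT and 14.7 CPM (52 UMIs) in HET, a ratio of 3.01 (1.38 to 5.33). Most of those UMIs came from subcluster 27, which had 39 UMIs in 100 HET nuclei (31.8 CPM) and 0 in 14 WT nuclei. A count of 0 in so few WT nuclei allows up to 33.7 CPM by the exact interval, and the interval of the ratio reached down to −0.15, so a difference within subcluster 27 was not detectable at this depth. In subcluster 27, over both libraries, *Slc17a6* was at 130 CPM and *Slc17a7* at 91.4 CPM. The inhibitory genes *Slc32a1*, *Gad1*, *Gad2* and *Slc6a5* were at 8.24, 0.749, 5.25 and 5.99 CPM there. Neuron.3 as a whole had *Slc6a5* at 217 CPM in WT and 142 CPM in HET. The part of this subcluster's share in the neuron.3 ratio was not tested. Of the 9 HET nuclei with at least 3 *Cbln4* UMIs, 4 lay in subcluster 27 and carried 17 of its 39 UMIs. Subcluster 27 had the highest level of *Cbln4*, with an interval that overlapped those of 5 others, and subcluster 24 of neuron.1 followed, with 21.6 and 14.0 CPM in the WT and HET libraries.

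**Figure D5:**
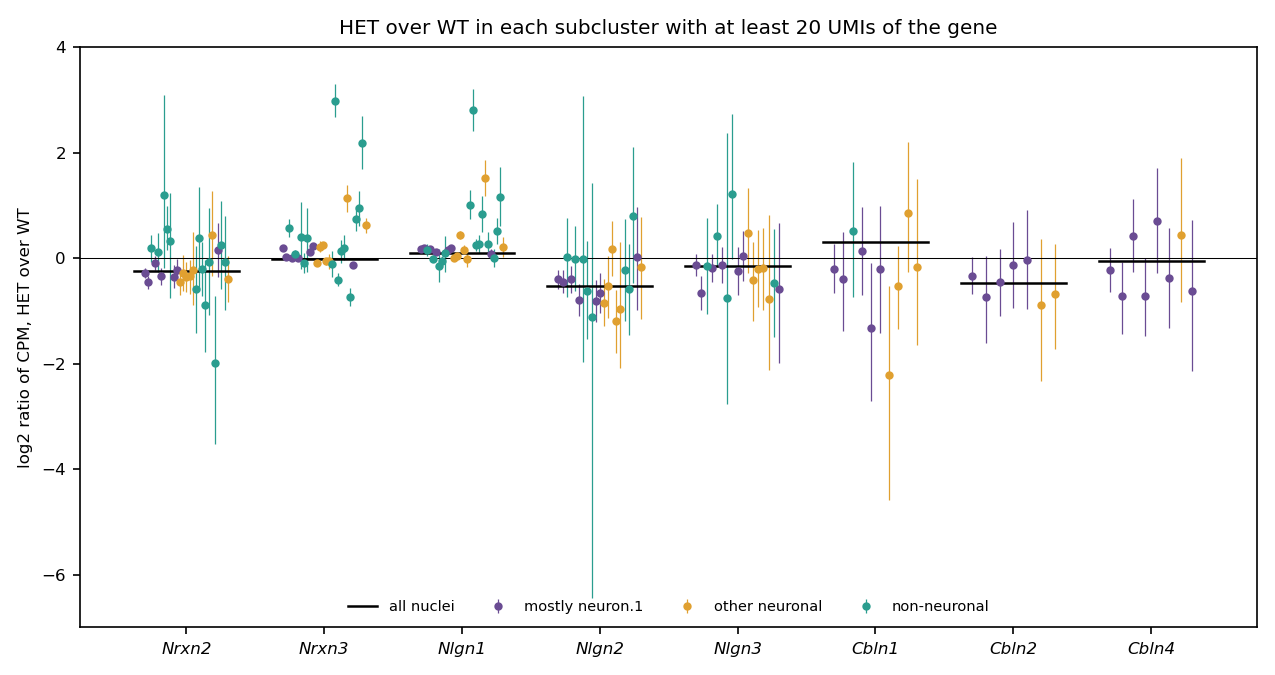
Log2 ratio of CPM, HET over WT (y axis), of each gene (x axis) in every subcluster that has 30 nuclei or more per library and at least 20 UMIs of the gene, with 95% counting intervals; black lines give the value over all nuclei. *Nlgn2* lies below 0 in most subclusters of neuron.1 (−0.81 to 0.01), *Nlgn1* lies just above 0 there (0.08 to 0.19), and the cerebellins have few subclusters and wide intervals.

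Some clusters with few nuclei gave large ratios, and their marker levels differed between the libraries too. In endo, *Nrxn3* was at 209 CPM in WT against 948 CPM in HET (2.18) and *Nlgn1* at 160 and 602 CPM (1.91). All 3 listed neuronal markers were higher in HET there as well, *Rbfox3* at 23.7 and 67.2 CPM, *Snap25* at 136 and 196 CPM and *Syt1* at 121 and 330.1 CPM, and their part in the ratios was not tested. In the 161 WT and 48 HET nuclei of endo whose reference label is endothelial, *Nrxn3* was at 179 and 261 CPM (0.55, −0.05 to 1.12) and *Nlgn1* at 94.3 and 225 CPM (1.25, 0.55 to 1.93). In epend.1, *Nrxn2* was at 153 CPM (65 UMIs) in WT and 30.8 CPM (7 UMIs) in HET, and the precursor-like subcluster 32 gave 30 of the WT UMIs and 1 of the HET UMIs. In subcluster 23 alone, which holds the ependymal markers, these were lower in HET as well, *Ccdc153* at 387 and 132 CPM, *Tmem212* at 1126 and 631 CPM and *Foxj1* at 92.8 and 72.7 CPM, the last within counting error, and their part in the ratios was not tested. There *Nrxn2* was at 108 and 27.3 CPM (−1.99, −3.53 to −0.72), and *Nlgn1* was at 1252 and 1513 CPM, higher in HET where the whole cluster was lower.

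The partner genes of the neurexin synapse were described from 6 hand-written lists by role, 66 genes in all, of which 63 had at least 200 UMIs. Past 1.5-fold were 4 of them beside 19.0% of all genes, 2 higher and 2 lower in HET. The median log2 ratio of the 63 was 0.06, and 38 lay above 0. Among the soluble neurexin ligands, *C1ql1* was at 10.8 CPM (758 UMIs) in WT and 5.85 CPM (387 UMIs) in HET, a ratio of −0.88 (−1.06 to −0.70). *C1ql3* was at 26.9 CPM (1894 UMIs) and 16.6 CPM (1096 UMIs), a ratio of −0.70 (−0.81 to −0.59). These C1q-like proteins are secreted and belong, like the cerebellins, to the C1q family. Both were lower in neuron.1 too, at −0.62 and −0.55, the latter within 1.5-fold. Both genes are short, at 7.425 and 8.35 kb. Over all nuclei the median of genes from 3 to 10 kb was −0.31, with an interquartile range from −0.59 to −0.001. The 2 ratios over all nuclei lay below that range, and the part of length in them was not tested. The other 9 ligands tested, among them neurexophilins and the carbonic-anhydrase-related *Car10* and *Car11*, stayed within 1.5-fold, and the list's median was −0.12.

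Of the 14 postsynaptic receptors of neurexins and cerebellins, *Igsf21*, which binds neurexin at inhibitory synapses, was at 22.4 CPM in WT and 34.8 CPM in HET, a ratio of 0.63 (0.54 to 0.73). The cerebellin receptor gene *Grid1* was at 433 and 446 CPM, a ratio of 0.04 (0.02 to 0.07), near the list's median of 0.03. Of the 16 postsynaptic scaffold genes 13 lay above 0, with a median of 0.15. Their counting interval lay above 0 for 12 and below 0 for 3, beside 27.2% and 47.5% of all genes. Many of them are long. The median of all genes was 0.09 from 100 to 300 kb, 0.13 from 300 to 1000 kb and 0.16 over 1000 kb. The median of the scaffold list was thus near that of long genes at large. The scaffold of inhibitory synapses *Gphn*, to which NLGN2 binds, was at 853 and 994 CPM (0.22, 0.20 to 0.24). It spans 458 kb, and its ratio lay within the interquartile range of genes from 300 to 1000 kb (0.02 to 0.25). *Insyn2a*, a protein of the inhibitory postsynapse, was at 28.1 CPM (1972 UMIs) and 66.2 CPM (4384 UMIs), a ratio of 1.24 (1.16 to 1.32), which was 0.49 in neuron.1. None of the 11 presynaptic scaffold genes, 6 membrane regulators of neuroligins or 5 splicing regulators of neurexins was past 1.5-fold. Their medians were 0.03, 0.08 and −0.02. With every cluster given the same weight in both libraries, 1 partner gene in place of 4 was past 1.5-fold.

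The genes most like each member over subclusters were found by Pearson's r of log2(CPM + 1) over the 33 subclusters with at least 50 nuclei, both libraries summed, among genes with at least 500 UMIs. The points share libraries and depth, so r is a description. *Nlgn1* had the closest match, *Adgrl3* (r = 0.91), which encodes the adhesion receptor latrophilin 3, followed by *Gm16054* and *Gm15584*. *Nrxn3* was most like *Ryr3* (0.86), a calcium release channel, *Kcnk10* and *Fgf14*. *Nrxn2* was most like *Oprk1* (0.81), the kappa opioid receptor, *Slc44a5* and *Tdp1*. *Nlgn3* was most like *Adgrl1* (0.82), which encodes latrophilin 1, *Asic1* and *Ptprt*, and *Nlgn2* was most like *Vps37d* (0.84), *Zmym3* and *Ppp1r26*. The cerebellins had weaker matches. *Cbln1* was most like *Gm27016* (0.69), its overlapping neighbour *Gm2694* (0.68) and *Lsm14b*, *Cbln2* was most like *Slc39a3* (0.70), *Gfra4* and *Morc4*, and *Cbln4* was most like *Syp* (0.72), *Trank1* and *Nap1l2*. Between members the highest values were 0.71 for *Nlgn2* with *Nlgn3*, 0.70 for *Nrxn3* with *Nlgn1* and 0.69 for *Nlgn1* with *Nlgn3*.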

How the data were processed

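Single-nucleus RNA-seq libraries (10x Chromium 3′ v3.1) of 1 WT and 1 HET brainstem were analysed. The authors deposited raw UMI counts per gene and nucleus, made with Cell Ranger (version not given in the sources used here) on its default mm10 reference. In Seurat 4.1, per the labels, they filtered nuclei, removed doublets and removed mitochondrial and hemoglobin genes, and deposited clusters, reference labels, a doublet score and the percent of mitochondrial and ribosomal UMIs of each nucleus. Of the 16 deposited clusters, 12 had at least 30 nuclei in each library. Counts were summed and compared as CPM with exact Poisson intervals and, for ratios, exact conditional binomial intervals. Shares have exact Clopper-Pearson intervals. No test was possible with 1 library per genotype, so genes with at least 200 UMIs over both libraries were called past 1.5-fold. Positions came from GENCODE vM21 (GRCm38), with 1 position for 24908 of the 25556 genes. Named genes were all members, partner genes past 1.5-fold and the 3 genes most like each member. The members and lists were chosen with earlier results of these data known. Subclusters 32, 27, 24 and others singled out, and neuron.5, were chosen after their values were seen. Alternatives changed scaling, cluster weights, totals, nuclei kept and the summary over nuclei. The code was tested on simulated data. The code ran in Python 3.11.15 with scipy 1.17.1, pandas 2.3.3, numpy 2.4.6 and matplotlib 3.10.9.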

Additional observations from a re-analysis of the deposited data

Results flagged for a closer look

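For 4 of the members, clusters lay on opposite sides of no change between the libraries, each with a counting interval clear of 0; the differences between clusters were not tested. The log2 ratio of *Nrxn2*, HET over WT, was 0.21 (0.05 to 0.38) in oligo and −2.31 (−3.68 to −1.19) in epend.1. *Nrxn3* was at 2.18 (1.89 to 2.48) in endo and −0.47 (−0.64 to −0.31) in epend.1, and *Nlgn1* at 1.91 (1.57 to 2.27) in endo and −0.30 (−0.48 to −0.12) in epend.1. *Cbln4* was at 3.01 (1.38 to 5.33) in neuron.3 and −2.47 (−5.72 to −0.20) in astro, the latter on 9 WT and 2 HET UMIs. In label-matched astrocytes it had 7 WT and 2 HET UMIs, and the interval of its ratio, −2.18 (−5.48 to 0.21), included 0. In endo, epend.1 and neuron.3 the marker levels or the subclusters' shares also differed between the libraries, by the values given above, and their part in these ratios was not tested.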

How the results depend on the processing

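No paired analysis was possible because each genotype has 1 library, and for the same reason no replicate could be left out. Averaging CPM over nuclei in place of summing UMIs moved the members past 1.5-fold from 0 to 2 over all nuclei and from 0 to 1 in neuron.1. With a minimum of 1 UMI in place of 200, 32.7% of all genes were past 1.5-fold, not 19.0%. Equal cluster weights left 1 partner gene past 1.5-fold, not 4. *Nrxn3* over all nuclei turned to 0.0801 with the median ratio of all genes set to 0, a shift of 0.10, and to 0.0131 with equal cluster weights. *Cbln1* without neuron.5 turned to −0.0329, and *Nrxn2* glutamatergic over inhibitory in HET turned to 0.0081 with the looser transmitter rule. For the averaging, the weights and the looser rule the cause was not tested. Over the 10 settings for all nuclei, the reported one included, *Nrxn2* ranged from −0.28 to −0.15, *Nlgn1* from 0.09 to 0.20, *Nlgn2* from −0.62 to −0.43, *Nlgn3* from −0.19 to −0.06, *Cbln2* from −0.76 to −0.34 and *Cbln4* from −0.22 to 0.05. Settings without neuron.6 or, for transmitter classes, without neuron.5, and the use of label-matched nuclei, were chosen after seeing the data. Cerebellin ratios within clusters are limited by depth.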
